A study of Mus musculus with 6 samples.

Results

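The 10 genes described here encode miRNA hairpins known for their enrichment in brain: Mir128-1, Mir128-2, Mir132, Mir212, Mir137, Mir138-1, Mir138-2, Mir153, Mir384 and Mir598. They were taken by their GENCODE M21 gene name from a table of 1973 miRNA genes, and all 10 had a row. The table holds small RNA sequencing counts of exosomes, small vesicles that cells release, from HN9.10e, an immortalized mouse hippocampal neuron line of wild-type genotype. Exosomes of 3 libraries came from untreated cells (control) and those of the other 3 from cells given 100 nmol/L ceramide, a sphingolipid, and both were collected at 48 h. All cells were grown with 10% fetal bovine serum, and all 6 libraries are of exosomal RNA, so the RNA of the cells themselves was not measured here. The study calls its replicates biological, and the labels do not say whether each was a culture of its own, so the p-values measure the spread between these libraries.

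A miRNA is cut from a hairpin and guides the silencing of mRNAs that pair with its seed, bases 2 to 8 from the 5′ end. In neurons, miR-128 is known for limiting excitability, miR-132 and miR-212 for being induced by CREB during neuronal activity and for promoting dendrite growth, and miR-137 for controlling the proliferation and differentiation of neural progenitors. The brain-enriched miR-138 acts at synapses, where it limits the size of dendritic spines, miR-153 targets genes of synaptic vesicle release such as Snap25, and miR-384 has been linked to synaptic plasticity. Much less is known of miR-598. The question put to these data was which of these miRNAs were carried in different amounts when the cells had been given ceramide.

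Mature sequences were found in RefSeq (GRCm38.p6) for 9 of the 10 genes. A single arm of each is shown, the better known one, to show which genes share a sequence or a seed, although each row of the table adds up both arms of a hairpin. Capitals mark the seed.

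miR-128-3p (from Mir128-1 and from Mir128-2): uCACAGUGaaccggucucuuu

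miR-138-5p (from Mir138-1 and from Mir138-2): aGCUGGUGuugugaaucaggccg

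miR-132-3p: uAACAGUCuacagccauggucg

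miR-212-3p: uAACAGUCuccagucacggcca

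miR-137-3p: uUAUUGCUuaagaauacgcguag

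miR-153-3p: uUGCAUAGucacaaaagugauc

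miR-384-5p: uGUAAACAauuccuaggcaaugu

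miR-30a-5p (from Mir30a, not one of the 10): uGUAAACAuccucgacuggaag

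These sequences tie the genes into groups. Mir128-1 and Mir128-2 give the same mature miR-128-3p, and Mir138-1 and Mir138-2 the same miR-138-5p, so the rows of a pair are not independent measurements of that miRNA. Different sequences with one shared seed, AACAGUC, come from Mir132 and Mir212. The seed of miR-384-5p, GUAAACA, is that of the miR-30 family, and RefSeq sequences with it were found for miR-30a-5p, miR-30c-5p and miR-30e-5p. The other miR-30 genes are Mir30b and Mir30d.

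The genes lie on 8 chromosomes of GRCm38. Mir128-1 (chr1:128202361-128202430, plus strand) is in an intron of R3hdm1 and Mir128-2 (chr9:112118636-112118711, minus) in an intron of Arpp21. Introns also hold Mir153 (chr12:117250817-117250885, plus, in Ptprn2) and Mir598 (chr14:63727189-63727267, plus, in Xkr6). Mir153 lies also within an intron of the antisense gene Gm5441. Exons of noncoding transcripts hold Mir137 (chr3:118433857-118433929, plus, in Gm26871), Mir138-2 (chr8:94324311-94324381, plus, in C78859) and Mir138-1 (chr9:122682876-122682974, plus, in the transcribed pseudogene Gm47135). Mir212 (chr11:75173388-75173478, plus) and Mir132 (chr11:75173682-75173747, plus) are neighbours in introns of the noncoding 1700016P03Rik. Mir384 (chrX:105344282-105344369, minus) overlaps no other annotated gene.

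Total counts ran from 800810 to 2760015 per library, and ceramide replicate 1 was the shallowest. The counts were scaled to CPM, counts per 1000000 of a library's effective size, with the TMM method of edgeR, and 418 rows with enough counts were tested, among them all 10 genes. Calls needed an adjusted p of 0.05 or less and a log2 fold change of at least 0.6 in size, the thresholds of the study. By these, 35 of the 418 rows were lower and 13 higher in ceramide exosomes, and the split moved with the scaling, to 26 and 21 with DESeq2's size factors, 28 and 23 with upper-quartile factors and 42 and 4 with library size alone. By the lane number in their labels, control and ceramide replicate 1 were in lane 1, the other control libraries in lane 4 and the other ceramide libraries in lane 2. Outside lane 1 the lane number and the treatment cannot be told apart. The labels name no sequencing run, so it is not known whether the libraries labelled lane 1 shared a lane. A lower CPM in exosomes does not tell fewer vesicles that carry a miRNA from less of it in each, and is relative to all other miRNAs counted. The defining neural miRNAs were present in every library, with Mir9-3 at 67.5 ± 4.97 CPM and Mir124a-1 at 19.96 ± 0.967 CPM in control exosomes (SD, n = 3 each). Copies of Mir9 and of Mir124a held nearly the same counts, so a sum over the 5 neural marker rows repeats them. Summed over the 5 rows the level was 185 to 206 CPM in control and 179.7 to 201 CPM in ceramide libraries, and 0 of 5 rows were called. Their median log2 fold change, -0.43, is that of the Mir124a copies, 3 rows with nearly the same counts that lay between -0.43 and -0.45, each with the groups apart (edgeR adjusted p between 0.14 and 0.16), while Mir9-2 and Mir9-3 were both at 0.14 and overlapped.

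Brain-enriched miRNAs were lower in exosomes of ceramide-treated cells in most of the 10 rows. Mir128-2, Mir138-1, Mir153, Mir384 and Mir598 were called lower, at between 0.56 and 0.65 of the control level, and none of the 10 was called higher. These are 5 of 10 rows called lower, where 8.37% of the 418 tested rows were called lower, and 0 of 10 called higher, where 3.11% were. DESeq2 called Mir128-2 and Mir138-1, 2 of the 10, where it called 6.8% of its 412 rows lower. Without the fold threshold Mir128-1 was added, which made 6 of 10 rows lower against 12.7% of all rows. Mir128-2 and Mir138-1 had been picked by the study from these same libraries, so their direction is not independent evidence. The other rows were read in the same libraries, and the 10 genes were chosen with earlier results of these data known. In 7 of the 10 rows the 3 ceramide libraries lay apart from the 3 control libraries, which held for 39.2% of all rows tested. The median log2 fold change was -0.58 over the 10 rows and -0.01 over all 418.

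**Figure D1:**
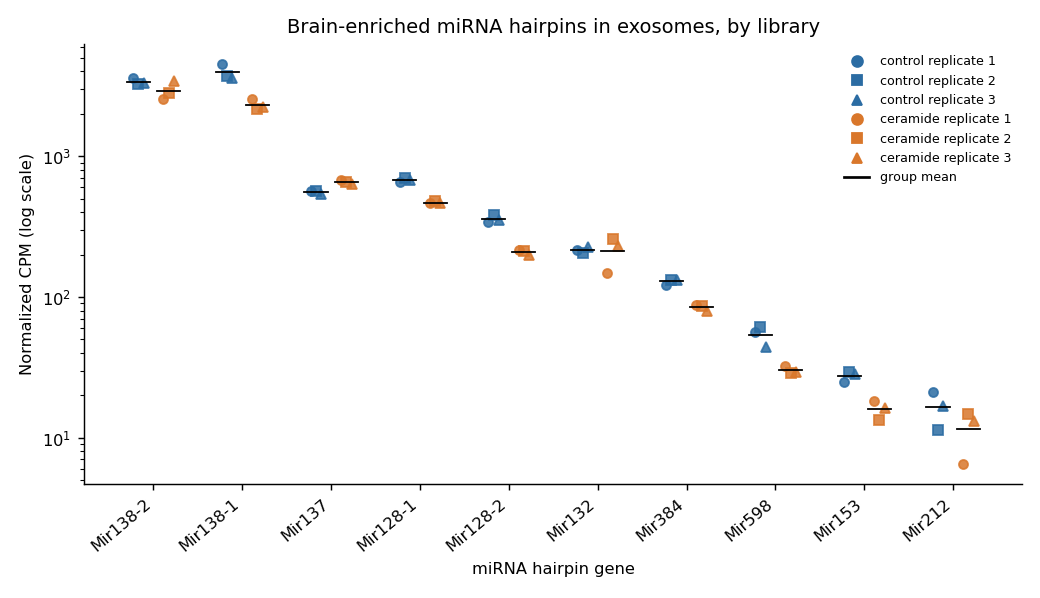
Normalized CPM (log axis) of each of the 10 hairpin genes in the 3 control (blue) and 3 ceramide (orange) libraries, with the replicate number as the marker shape and the group mean as a bar. Mir128-1, Mir128-2, Mir138-1, Mir384, Mir598 and Mir153 had every ceramide library below every control library, Mir137 had them above, and Mir138-2, Mir132 and Mir212 overlapped.

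Ordered by CPM per 100 nt of hairpin, the control levels ran from Mir138-2, at 4762 ± 261, and Mir138-1, at 3970 ± 516, down to Mir212, at 18.0 ± 5.28 (SD, n = 3 each). The order of the miR-138 genes rests on the division by hairpin length, 71 nt for Mir138-2 and 99 nt for Mir138-1, since Mir138-1 held more counts in every control library. On that scale no 2 neighbours in the order overlapped in the control libraries, though the gap between Mir138-2 and Mir138-1 was as small as 4563 against 4562 CPM per 100 nt. In ceramide exosomes Mir137 and Mir128-1 changed places, with 897 ± 25.7 for Mir137 and 667 ± 12.1 for Mir128-1. By their means Mir132 and Mir128-2 did so too, at 322 ± 88.9 and 275 ± 12.8 (SD, n = 3 each), but their libraries overlapped, and in ceramide replicate 1 Mir132 was below Mir128-2.
Counts on the Mir138 rows made up 74.0% to 80.2% of the counts of the 10 genes in each library. Summed over the 10 rows, the level was 10107, 9021 and 8918 CPM in control replicates 1, 2 and 3 and 6732, 6720.07 and 7303 CPM in ceramide replicates 1, 2 and 3. Every ceramide library was below every control library, and the mean difference was -2430.07 CPM (two-sided exact permutation test, p = 0.1, the lowest value that 3 libraries against 3 allow). With the copies of miR-128 and of miR-138 each counted once, as their mean, it was -1209 CPM. Without the Mir138 rows the sums were 2038 ± 46.6 CPM for control and 1685 ± 52.6 CPM for ceramide (SD, n = 3 each), and the exact permutation p was again 0.1.

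The miR-138 genes held the most counts. Mir138-1 had 4517, 3691 and 3582 CPM in control replicates 1, 2 and 3 and 2561, 2166 and 2219 CPM in ceramide replicates 1, 2 and 3. The groups were apart, and replicate 1 was the highest library of both. The log2 fold change of Mir138-1 was -0.76 (SE 0.12, edgeR's quasi-likelihood test, adjusted p = 0.0053). Mir138-2 had 3591, 3240.05 and 3313 CPM in the control libraries and 2527, 2810.3 and 3417 CPM in the ceramide libraries. The groups of Mir138-2 overlapped, since ceramide replicate 3 was above 2 of the 3 control libraries, and it was not called (log2 fold change -0.21, SE 0.12, edgeR adjusted p = 0.26). The 95% interval of the change of Mir138-2, from -0.50 to 0.08 on the log2 scale, leaves room for a fall as well as for none.

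Since both rows can take reads of miR-138-5p, their ratio was followed within each library, where the scaling has no part. Counts on Mir138-1 were 1.26, 1.14 and 1.08 times those on Mir138-2 in control replicates 1, 2 and 3 and 1.01, 0.771 and 0.650 times in ceramide replicates 1, 2 and 3. The ratio was lower in every ceramide library than in any control library, and it was lower in ceramide for each replicate number. On the log2 scale it went from 0.21 ± 0.11 to -0.33 ± 0.32, a difference of -0.54 (SD, n = 3 each, two-sided exact permutation p = 0.1). When the replicate numbers were used as pairs, the exact sign-flip test gave p = 0.25, the lowest it can give with 3 pairs.
The 2 hairpins have a run of 24 bases in common that spans miR-138-5p, shown in capitals in the sequences from RefSeq.

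Mir138-1: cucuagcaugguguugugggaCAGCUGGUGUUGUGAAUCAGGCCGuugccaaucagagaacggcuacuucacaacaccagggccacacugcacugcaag

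Mir138-2: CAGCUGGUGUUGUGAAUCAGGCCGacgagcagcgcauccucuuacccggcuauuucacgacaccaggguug

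Their 3p arms differ in sequence. The rows of Mir138-1 and Mir138-2 differed by 1.32% to 35.0% of the larger count in a library, while the rows of Mir124a-1 and Mir124a-2, copies of another neuronal miRNA, differed by at most 2.86%. With the 2 Mir138 rows joined by their mean, the log2 fold change was -0.49 (SE 0.10, edgeR adjusted p = 0.016), under the fold threshold, so the call of Mir138-1 rests on taking the copies apart.

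**Figure D2:**
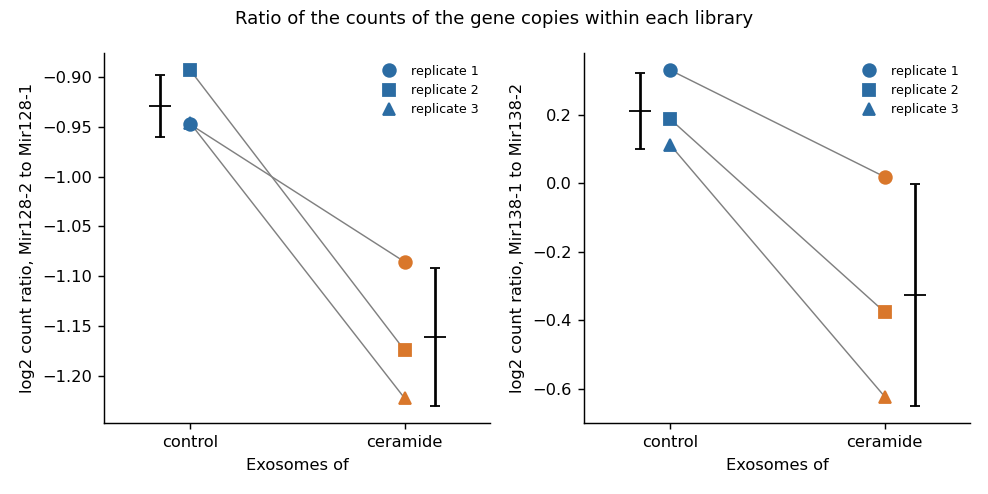
log2 ratio of the counts of Mir128-2 to Mir128-1 (left) and of Mir138-1 to Mir138-2 (right) in control and ceramide libraries, with grey lines joining libraries of the same replicate number and black bars for the mean and SD of 3 libraries. Both ratios were lower in all 3 ceramide libraries, with a mean difference of -0.23 for the miR-128 copies and of -0.54 for the miR-138 copies.

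Both miR-128 genes were lower in ceramide exosomes. Mir128-2 had 341, 379.7 and 353 CPM in control replicates 1, 2 and 3 and 217, 211 and 198 CPM in ceramide replicates 1, 2 and 3, with the groups far apart. It fell by 0.78 on the log2 scale (SE 0.10, edgeR's quasi-likelihood test, adjusted p = 0.0026), to 0.582 of the control level. Mir128-1 had 659, 705 and 681 CPM in the control libraries and 461, 476 and 462 CPM in the ceramide libraries, again with no overlap. Its log2 fold change was -0.55 (SE 0.08, edgeR adjusted p = 0.0053), past the p threshold and short of the fold threshold.
Counts on Mir128-2 were 0.518, 0.538 and 0.519 times those on Mir128-1 in control replicates 1, 2 and 3 and 0.470, 0.443 and 0.428 times in ceramide replicates 1, 2 and 3. The log2 ratio was lower in each ceramide library than in each control library, with a mean difference of -0.23 (two-sided exact permutation p = 0.1). The copies have a run of 23 bases in common around miR-128-3p, in capitals below, and differ in their 5p arms.

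Mir128-1: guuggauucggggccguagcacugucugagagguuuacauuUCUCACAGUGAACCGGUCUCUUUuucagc

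Mir128-2: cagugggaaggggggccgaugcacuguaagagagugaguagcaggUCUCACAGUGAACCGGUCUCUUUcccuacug

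With the 2 rows joined by their mean, miR-128 was called, with a log2 fold change of -0.63 (SE 0.09, edgeR adjusted p = 0.0059). The direction of both rows was the same in all 16 alternatives. The call of Mir128-2 was lost in 1 of them, with the sequencing lane as a term (log2 fold change -0.65, edgeR adjusted p = 0.083, with a range of 0.00044 to 0.083 over the alternatives).

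Mir153, Mir384 and Mir598 were lower as well, on fewer counts. Mir384, whose 5p arm shares the miR-30 seed, had 121, 133 and 132 CPM in control replicates 1, 2 and 3 and 87.1, 86.4 and 80.0 CPM in ceramide replicates 1, 2 and 3. All 3 ceramide libraries were below the lowest control library, and the spread within each group was small. The log2 fold change of Mir384 was -0.61 (SE 0.11, edgeR's quasi-likelihood test, adjusted p = 0.0088), just past the fold threshold. It was called in 7 of 16 alternatives, and with DESeq2's size factors and with upper-quartile factors it was at -0.54. Of the fits that left out one library, those without control replicate 2 (-0.56), control replicate 3 (-0.59) and ceramide replicate 3 (-0.57) put it under the fold threshold. Among the rows with the same seed, Mir30a had a log2 fold change of -0.46 (SE 0.08, edgeR adjusted p = 0.010) and was not called for its size. Mir30c-1 (-0.01), Mir30c-2 (0.05) and Mir30e (-0.13) had adjusted p values of 0.31 or more by edgeR. Of the other miR-30 genes, named after their values were seen, Mir30d was called lower, with a log2 fold change of -0.67 (SE 0.08, edgeR adjusted p = 0.0026), and Mir30b was at 0.21 (SE 0.13, edgeR adjusted p = 0.27). The miR-30 rows thus differed among themselves in size and sign.

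Mir598 had 55.9, 61.1 and 43.9 CPM in control replicates 1, 2 and 3 and 32.5, 28.8 and 29.4 CPM in ceramide replicates 1, 2 and 3. Its control libraries varied more than its ceramide libraries, and the groups did not overlap. Mir598 fell to 0.559 of the control level, a log2 fold change of -0.84 (SE 0.17, edgeR adjusted p = 0.014). Mir153 had 24.9, 29.2 and 28.5 CPM in the control libraries and 18.2, 13.3 and 16.2 CPM in the ceramide libraries. The groups were apart there too, over 192 counts in all, with 14 counts in ceramide replicate 1 (exact Poisson 95% interval 7.65 to 23.5, for counting error only). For Mir153 the log2 fold change was -0.84 (SE 0.18, edgeR adjusted p = 0.019).
These 2 calls were lost when single libraries were left out, while the log2 fold changes in those fits stayed between -0.70 and -0.82 for Mir598 and between -0.71 and -0.90 for Mir153. When control replicate 1, control replicate 2 and ceramide replicate 2 were left out in turn, the edgeR adjusted p was 0.080, 0.061 and 0.076 for Mir598 and 0.061, 0.087 and 0.11 for Mir153. Without control replicate 3 it was 0.073 for Mir153, while Mir598 stayed called. DESeq2 gave adjusted p values of 0.20 for Mir153, 0.080 for Mir598 and 0.069 for Mir384, so none of the 3 was called by it. Over the 16 alternatives the adjusted p ran from 0.0073 to 0.61 for Mir153, from 0.0047 to 0.28 for Mir598 and from 0.0030 to 0.22 for Mir384. All 3 kept their direction in all 16 alternatives.

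**Figure D3:**
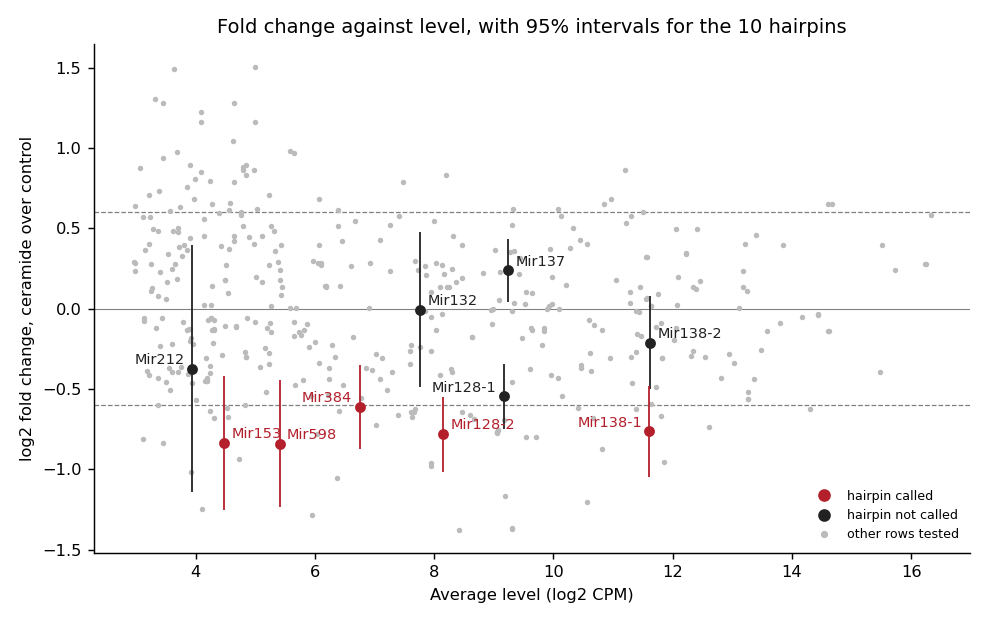
log2 fold change (ceramide over control) against the average level (log2 CPM) of the 418 rows tested, with the 10 hairpins as large points with 95% intervals, red where called, and dashed lines at the fold threshold of 0.6 in either direction. The 5 called hairpins lie below the lower line, at average levels from that of Mir153 to that of Mir138-1, and Mir137 alone of the 10 is above 0.

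Mir137 alone pointed the other way. It had 563, 564 and 539 CPM in control replicates 1, 2 and 3 and 674, 654 and 637 CPM in ceramide replicates 1, 2 and 3, so that every ceramide library was above every control library. The difference was small, with a log2 fold change of 0.24 (SE 0.08), and it passed neither threshold (edgeR's quasi-likelihood test, adjusted p = 0.091). With the replicate number as a block the change was 0.24 (SE 0.07) and the edgeR adjusted p was 0.037, still far below the fold threshold. The sign held in 16 of 16 alternatives, with values between 0.16 and 0.31 and adjusted p between 0.035 and 0.48.

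Mir132 and Mir212, the activity-induced pair, were not called. Mir132 had 215, 206 and 228 CPM in control replicates 1, 2 and 3 and 147, 259.8 and 231 CPM in ceramide replicates 1, 2 and 3. The lowest and the highest library were both ceramide libraries, and the group means, 216 ± 10.8 and 212 ± 58.7 CPM (SD, n = 3 each), differed by far less than that spread. The log2 fold change of Mir132 was -0.01 (edgeR adjusted p = 0.98), and its 95% interval, from -0.49 to 0.47, allows changes of some size in either direction. Its sign changed in 6 of 16 alternatives, and without ceramide replicate 1 it was 0.16.
Mir212 had 20.96, 11.4 and 16.8 CPM in the control libraries and 6.50, 14.8 and 13.2 CPM in the ceramide libraries, which overlapped. With 5 counts in ceramide replicate 1 (exact Poisson 95% interval 1.62 to 11.7), the change of Mir212 could not be resolved at this depth (log2 fold change -0.37, SE 0.32, edgeR adjusted p = 0.42). The log2 ratio of Mir132 to Mir212 was 3.73 ± 0.41 in control and 4.20 ± 0.15 in ceramide exosomes (SD, n = 3 each, exact permutation test, two-sided, p = 0.3), and the groups overlapped. This depended on the prior count added to the counts: with 2 in place of 0.5 the groups were apart, with a difference of 0.42 (exact permutation p = 0.1, the lowest possible).

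Replicate 1 of both groups has the lane number 1, which gives 1 library against 1. In that pair Mir137 was higher in the ceramide library and the other hairpins were lower. The share of all tested rows that were lower in the pair was not counted. A fit with the lane as a term, in which the ceramide effect comes from that pair and 2 residual degrees of freedom remain, called Mir138-1 (log2 fold change -0.82, edgeR adjusted p = 0.036, with a range of 6.7e-05 to 0.038 over the alternatives) and no other of the 10, where it called 5.02% of all rows lower. In this fit Mir128-1 was at -0.51, Mir598 at -0.78, Mir384 at -0.47 and Mir153 at -0.45 on the log2 scale. Mir132 was at -0.55 and Mir212 at -1.68, both well below their values over all libraries.

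**Figure D4:**
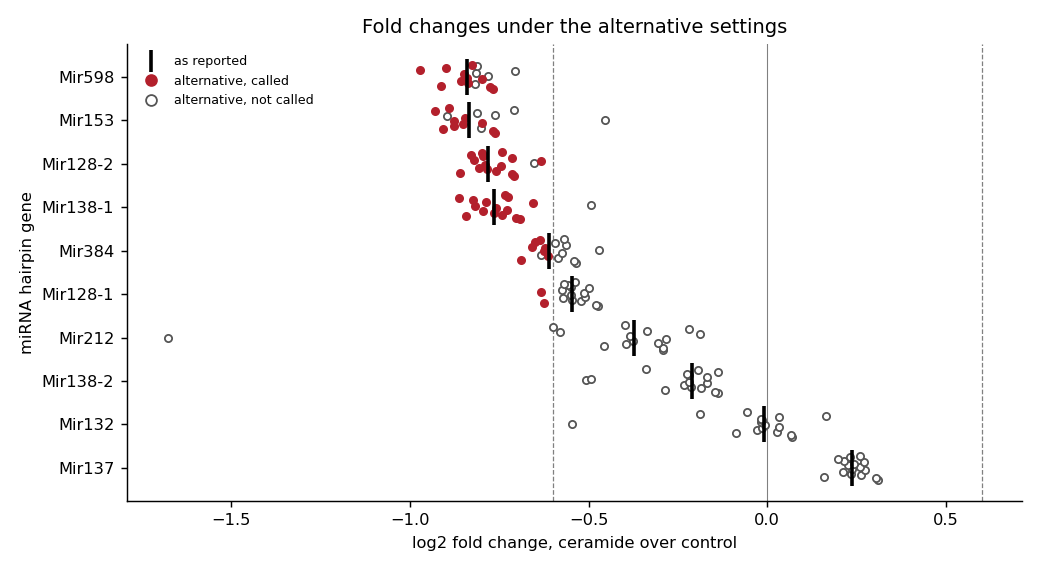
log2 fold change (ceramide over control) of each hairpin as reported (black bar) and in each alternative setting (points, red where called), with dashed lines at the fold threshold of 0.6. Mir128-2 and Mir138-1 were called in 15 of 16 alternatives, Mir598 in 11, Mir153 in 10, Mir384 in 7 and Mir128-1 in 2.

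Other brain-enriched miRNAs were seldom called. Of 33 further genes, among them Mir9, Mir124a, Mir218 and Mir7, 32 had a row, 2 of them without a count, and 23 were tested, of which 1 was called lower and 0 higher, beside 8.37% and 3.11% of all rows. Fitted values were lower for 15 and higher for 8 of the 23, with a median log2 fold change of -0.12, and in 11 of 23 the groups did not overlap, beside 39.2% of all rows. Whether this list differed from the 10 rows was not tested. The one called was Mir338, at -0.72 (SE 0.14, edgeR adjusted p = 0.012), which the study had also picked from these libraries. Mir330, which the study had picked as higher, was at 0.83 (SE 0.27, edgeR adjusted p = 0.072). It was not called, and its groups overlapped. Mir218-2, with the most counts of the list, had a log2 fold change of 0.46 (SE 0.16, edgeR adjusted p = 0.095). Several of these rows are copies that hold nearly the same counts, such as those of Mir9, Mir124a and Mir7.

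Markers of other sources were followed in the same libraries. For blood cells and serum, 5 of 8 listed genes were matched to a row by their symbol and 0 of 5 were called. Their summed level was 124 to 151 CPM in control and 157 to 185 CPM in ceramide exosomes, so for these 5 rows it was higher in every ceramide library. The sum leaves out Mir486, whose symbol differs from the listed Mir486a and Mir486b. Named after its values were seen, Mir486 had 281, 238 and 283 CPM in control replicates 1, 2 and 3. In ceramide replicates 1, 2 and 3 it had 178, 229 and 257 CPM. Its groups overlapped, and its log2 fold change was -0.26 (SE 0.16, edgeR adjusted p = 0.27). The part of these markers in the results above was not tested. Among the 5 matched rows Mir122, a liver miRNA that circulates in serum, had the most counts, 644 against 2349 for Mir486. Mir122 had a log2 fold change of 0.39 (SE 0.12, edgeR adjusted p = 0.064), and the median of the 5 was 0.39. The summed level of 7 muscle rows was 121 to 149 CPM in control and 135 to 172 CPM in ceramide exosomes, and 0 of the 4 tested were called, with a median log2 fold change near that of all rows. Mir1a-1, with the most counts there, was at 0.30 (SE 0.20, edgeR adjusted p = 0.30). For the 6 epithelial rows of the miR-200 family and Mir205 it was 868 to 935 CPM and 817 to 933 CPM, with 0 of 3 tested called and a median log2 fold change of 0.14, that of Mir200b, which had the most counts. Mir200a, named after its values were seen, was at -0.38 (SE 0.11, edgeR adjusted p = 0.056), with the groups apart.

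By the rule for similar rows, Pearson's r of log2 CPM over the 6 libraries was taken against all rows with another mature sequence, as a description. Closest to Mir138-1 were Mir187 (r = 0.985), Mir378c (r = 0.985) and Mir140 (r = 0.984). For Mir138-2 they were Mir5113 (r = 0.962), Mir488 (r = 0.952) and Mir700 (r = 0.932), and none of these was among the 3 closest to Mir138-1. Mir137 was closest to Mirlet7b (r = 0.989), Mir421 (r = 0.983) and Mirlet7a-2 (r = 0.981). The libraries of one group share their treatment, and all share the scaling, which both add to such values.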

How the data were processed

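Exosomal small RNA of HN9.10e cells was sequenced in 6 libraries (QIAseq miRNA kit, NovaSeq). The authors trimmed reads with Cutadapt 1.15, aligned them to GRCm38 with STAR 2.5.3a, assigned them to GENCODE miRNA genes within STAR and deposited raw counts per gene. The GENCODE release, the use of strand and the handling of multi-mapping reads and molecular identifiers are not given in the sources used here. Copies of a gene may therefore share reads. The Poisson intervals cover counting error only. Intervals of fold changes come from the quasi-likelihood fit and include the spread between libraries. Gene names and positions came from GENCODE M21, which matched 1894 of 1973 rows, and sequences from RefSeq.

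The deposited counts were tested with edgeR 4.0.16 (R 4.3.3), using TMM, filterByExpr, the quasi-likelihood test, condition as the only term and Benjamini-Hochberg adjustment over 418 rows. DESeq2 1.42.0 and limma-voom (limma 3.58.1) were alternatives. The procedure was tested on simulated counts. Exact permutation tests (scipy 1.17.1) were run on single values, and ratios used counts plus 0.5. Replicate numbers came from the labels. Deviations from the group means of same-numbered libraries correlated at 0.59, 0.43 and 0.75. The numbers were therefore used as pairs in the replicate block and the sign-flip tests, which were alternatives. The main fit and the permutation tests did not use them.

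All 10 genes are named. Named beside them are rows that share a seed, the 3 rows most like each of the 3 with the most counts, and called members of the lists, or else the one with the most counts. Mir124a-1 was added as a defining neural marker, Mir330 as a pick of the study and Mir486 for its counts. The genes, lists and rules were chosen with earlier results of these data known.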

Additional observations from a re-analysis of the deposited data

How the results depend on the processing

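The summed level of the 10 hairpins and the ratios of the miR-128 and miR-138 copies kept their direction in every alternative run, and so did the single log2 fold changes except that of Mir132. The number of the 10 rows called was 5 and lay between 4 and 6 with 3 other scalings, limma-voom, 2 other filters, joined copies, no fold threshold and the replicate block, which called 5 and changed no call. Joining copies left 8 rows for the 10 genes, and the filter of at least 10 counts tested 9. Of all rows tested, limma-voom called 36 of 418 lower, the replicate block 49 of 418 and joined copies 29 of 385. Without a filter 30 of 1058 rows were called lower, and with at least 10 counts 29 of 346. The number of the 10 rows called was 2 with DESeq2 and 1 with the sequencing lane as a term. Leaving out each library in turn gave 2 to 5, with 3 without control replicate 1, 2 without control replicate 2, 3 without control replicate 3 and 3 without ceramide replicate 2. In the same order, those fits called 25 of 450, 27 of 430, 33 of 436 and 27 of 428 tested rows lower. The log2 fold change of Mir132 turned positive with DESeq2's size factors (0.0694), with upper-quartile factors (0.0661), in DESeq2 (0.0266) and with at least 10 counts required in every library (0.0323), and it ranged from -0.188 to 0.164 over the fits that left out a library. Over all rows, 48 were called, against 87 with the replicate block, 29 with the lane as a term and 28 without control replicate 1. The causes of these changes were not tested. Counts per library limit Mir212 and Mir153 most, and joining copies replaces separate rows by their mean.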
